A study of Mus musculus with 59 samples.

Results

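The mesenchymal marker genes described here are Vim, Acta2, Thy1, Cdh11, Efemp1, Lgals3bp and Qsox1, non-collagen genes of fibroblasts and of the matrix that fibroblasts build. They were found by gene symbol, and make up 7 of the 23974 genes in the table. They were chosen from these data because their values were higher in Zcchc8 knockout (KO) than in control cells at 0 h and held their level in Actinomycin D, a drug that stops transcription. The 0 h difference and the course over time are therefore given as a description, and calls at 0 h are no test of these genes. The question put to them was whether they keep one fixed ratio to each other across libraries.

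The cells were mouse embryonic stem cells (ESCs) derived from BDF1 blastocysts and grown with LIF, CHIR99021 and PD0325901, either wild type (control) or lacking Zcchc8, a scaffold protein of the nuclear exosome targeting complex. Both genotypes received Actinomycin D at 5 µg/ml, and RNA depleted of ribosomal RNA was sequenced at 0, 4 and 8 h, with 2 libraries in each of the 6 groups. The labels do not say whether the 2 libraries came from separate cultures or how many KO lines were used, so p-values measure the spread between libraries, which may be technical. Values are the authors' normalised read counts, and the reads behind them could be recovered.

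Mesenchymal cells are loosely packed, motile cells that secrete matrix, and fibroblasts are their commonest form in tissues. They hold vimentin filaments and contractile actin, carry adhesion proteins such as Cdh11, and release matrix and matrix-modifying proteins. ESCs are epithelial-like cells joined by Cdh1, and such genes are known to come up when ESCs differentiate. Fibroblasts are also used as feeder layers in ESC culture, and the sources used here do not say whether feeders were used.

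Promoter sequences are shown for the 2 cytoskeletal members and for Efemp1, whose ratio to Vim varied most over time among the members with reads in every library. Each is the 250 bases before the annotated transcript start, from RefSeq on GRCm38.p6, written 5′ to 3′ on the gene's strand. Of the 7 genes, 5 had a promoter in that source, Cdh11 and Thy1 not being among them. Capitals mark matches, on either strand, to 3 of the motifs searched, which were TGANTCA (AP-1), GGAATG (TEAD) and GGGCGG (Sp1). The CArG box of SRF, a known regulator of Acta2, was also searched, as CCWWWWWWGG with W for A or T.
Vim, chr2:13574061-13574310, + strand: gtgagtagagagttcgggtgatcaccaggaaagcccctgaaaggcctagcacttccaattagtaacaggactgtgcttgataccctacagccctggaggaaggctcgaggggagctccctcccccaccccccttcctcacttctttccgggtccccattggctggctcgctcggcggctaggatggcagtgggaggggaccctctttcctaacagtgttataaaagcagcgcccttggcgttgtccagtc
Acta2, chr19:34255374-34255623, − strand: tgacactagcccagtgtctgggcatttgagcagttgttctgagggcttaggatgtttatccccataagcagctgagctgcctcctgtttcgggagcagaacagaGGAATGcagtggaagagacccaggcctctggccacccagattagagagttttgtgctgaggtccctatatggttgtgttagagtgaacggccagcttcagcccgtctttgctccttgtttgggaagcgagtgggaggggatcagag
Efemp1, chr11:28852955-28853204, + strand: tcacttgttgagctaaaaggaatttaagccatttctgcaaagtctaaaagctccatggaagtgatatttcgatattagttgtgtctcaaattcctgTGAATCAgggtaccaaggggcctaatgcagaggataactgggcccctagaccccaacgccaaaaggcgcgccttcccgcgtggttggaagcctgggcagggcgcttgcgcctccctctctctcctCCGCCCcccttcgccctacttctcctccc

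No motif occurred in all 5 promoters. Acta2 held 1 TEAD match, Efemp1 held 1 AP-1 and 1 Sp1 match, Qsox1 held 3 Sp1 matches, and Vim and Lgals3bp held none of the 4. Only exact matches were counted, so CArG boxes with 1 changed base were missed. The Acta2 sequence holds such runs, ccctatatgg and ccttgtttgg. Of 32851 mouse promoters of the same length, 12.64% held the TEAD letters, 6.749% the AP-1 letters, 32.74% the Sp1 letters and 1.467% the CArG box. A match is only a run of letters and says nothing of binding in these cells.

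Libraries held 465324 to 1364523 reads, and 1 read was worth 0.452 to 3.23 normalised units. Zcchc8 stood at 59.3 and 77.5 in control and at 25.3 and 5.29 in KO at 0 h, at 32.7 and 24.7 against 21.3 and 13.6 at 4 h, and at 7.57 and 11.3 against 9.56 and 3.78 at 8 h, where the genotypes overlapped. ESC markers were present in both genotypes: Pou5f1, a core pluripotency factor, had between 10.9 and 38.6 reads per 100 Vim reads in every library. The median of the 6952 tested genes was higher in KO by 0.44, 0.29 and 0.63 log2 units at 0, 4 and 8 h. TMM scaling, which centres most genes, brought that median to 0.01, −0.0038 and −0.0047, and member changes are read against it. How often KO and control libraries fail to overlap among all tested genes was not counted. Non-overlap of single genes is therefore given below only as a description. Control 0 h replicate 2 carried the largest library factor, and the median gene lay 0.81 log2 units lower in its partner.

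**Figure D1:**
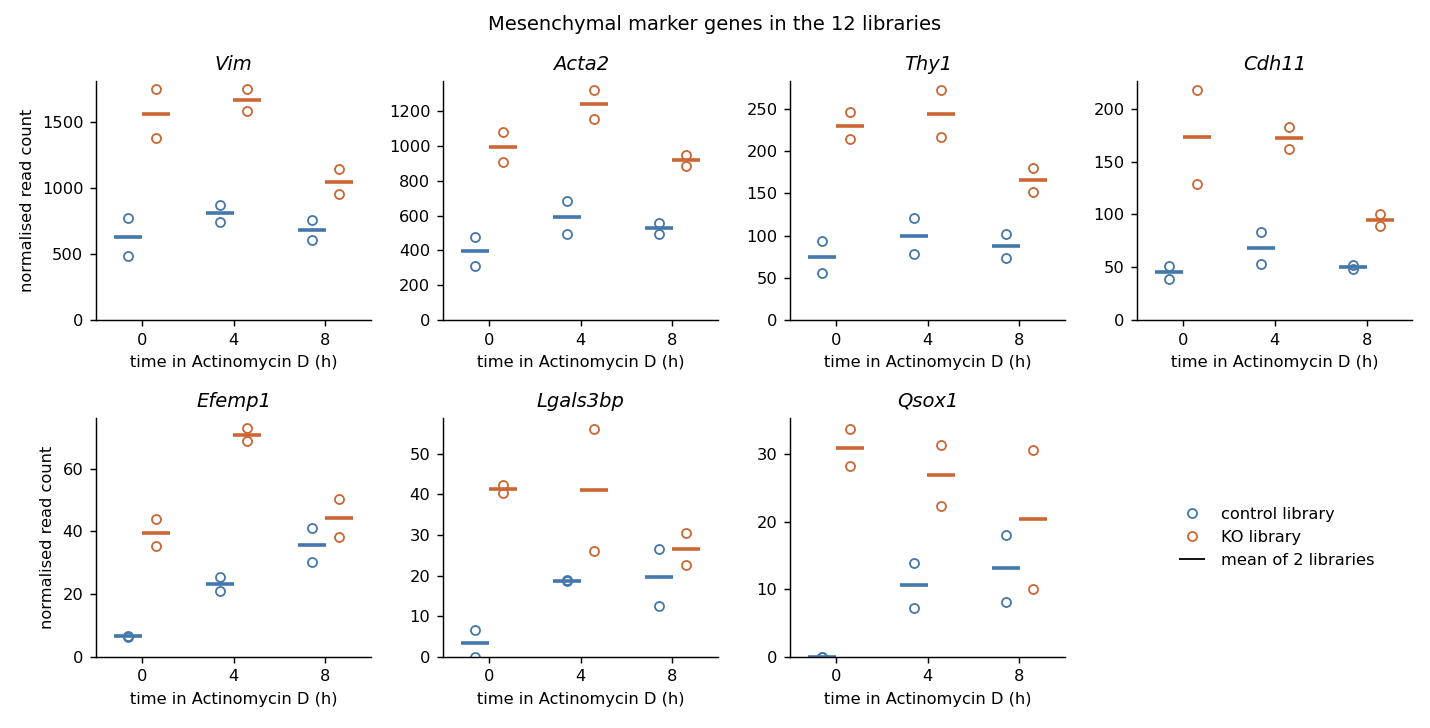
Normalised read count (vertical axis, from 0) of each marker gene against hours in Actinomycin D. Open circles are libraries, 2 per group, and bars are group means. Circles of Efemp1, Lgals3bp and Qsox1 overlap between genotypes at 8 h. The share of all tested genes without overlap was not counted, so separate circles are only a description.

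Vim, the intermediate filament protein of mesenchymal cells, was the most abundant member. Its normalised read count in control was 481 and 769 at 0 h, 741 and 870 at 4 h, and 605 and 756 at 8 h. In KO it was 1743 and 1379, then 1579 and 1744, then 1141 and 951. Every KO library lay above every control library of its time, and the gap was narrowest at 8 h. The ratio of group means was 2.50 at 0 h, 2.06 at 4 h and 1.54 at 8 h.

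Acta2, the smooth muscle actin of myofibroblasts, had the next highest level. Control libraries held 313 and 475 at 0 h, 494 and 684 at 4 h, and 494 and 559 at 8 h. KO libraries held 1080 and 906, then 1157 and 1322, then 950 and 885. The groups did not overlap at any time, and the ratio of means was 2.52, 2.104 and 1.74. Of the runs of 50 bases in its transcript, 0.352% also occur in another annotated transcript. Among the members that share was highest for Cdh11, at 3.23%.

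Thy1, a GPI-anchored surface protein used to sort fibroblasts, had values of 55.3 and 93.7, 78.6 and 120.5, and 74.0 and 102.1 in control at 0, 4 and 8 h. KO values were 214 and 247, 216.4 and 272, and 180.4 and 151. Cdh11, the cadherin of fibroblasts and osteoblasts, had 51.4 and 38.8, 53.1 and 83.4, and 48.1 and 52.4 in control. Neither gene overlapped between genotypes at any time. Cdh11 in KO was 217 and 129, 162 and 183, and 101 and 89.4, with the 2 libraries furthest apart at 0 h. The ratio of means was lower at each later time, at 3.09, 2.45 and 1.88 for Thy1 and 3.84, 2.53 and 1.89 for Cdh11.

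Efemp1 (fibulin-3), a secreted matrix glycoprotein, followed another course. Control libraries had 6.58 and 6.46 at 0 h, from 5 and 2 reads, then 21.1 and 25.5 at 4 h and 30.3 and 41.1 at 8 h. KO libraries had 43.8 and 35.3, then 72.9 and 68.8, then 38.2 and 50.4. Control values were thus higher at each later time, whereas KO values were highest at 4 h, and the groups overlapped at 8 h. The ratio of means was 6.06, 3.04 and 1.24.

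Lgals3bp, a secreted glycoprotein that binds galectins, and Qsox1, a secreted sulfhydryl oxidase that forms disulfides in the matrix, had the fewest reads. Lgals3bp in control was 6.58 and 0 at 0 h, 18.9 and 18.5 at 4 h, and 12.4 and 26.7 at 8 h. In KO it was 40.4 and 42.3, 56.1 and 26.2, and 30.6 and 22.7, overlapping with control at 8 h. Its 0 h levels rested on 5 reads in control and 48 in KO. Qsox1 was at 0 in both control 0 h libraries, then 7.28 and 13.9 at 4 h, and 8.11 and 18.1 at 8 h. In KO it was 33.7 and 28.2, 31.4 and 22.3, and 30.6 and 10.1. Qsox1 at 0 h had 0 reads in control against 36 in KO. On the deposited scale its KO level was 11.05 times the level that 3 counts over the control group would give. That figure depends on the library factors and leaves out the counting error of the KO reads, so it is no lower bound. Its exons overlap a transcript on the opposite strand, and the sources used here do not state whether reads were counted by strand.

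Per kilobase of transcript, the order of mean levels in KO at 0 h was Vim (712 ± 118, SD, n = 2), Acta2 (488 ± 60.2), Thy1 (133 ± 13.4), Cdh11 (30.6 ± 11.1), Efemp1 (19.4 ± 2.96), Lgals3bp (17.8 ± 0.575) and Qsox1 (9.24 ± 1.16). Cdh11, Efemp1 and Lgals3bp followed each other without differing beyond their spread. In control at 0 h the first 4 genes stood in the same order, from 285 ± 92.9 for Vim to 7.98 ± 1.58 for Cdh11, and Vim and Acta2 overlapped within 1 SD.

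Reads of the 7 genes together, which need no library factor, made up 0.132% and 0.108% of all reads without the ribosomal precursor Rn45s in control at 0 h, against 0.269% and 0.223% in KO. At 4 h the shares were 0.227% and 0.230% in control and 0.431% and 0.407% in KO. At 8 h they were 0.354% and 0.351% in control and 0.408% and 0.286% in KO. Shares in control were thus higher at each later time, and at 8 h the 2 KO libraries lay on either side of control. In bulk RNA, fewer cells of a type and less RNA per cell cannot be told apart.

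The KO versus control comparison was tested at 4 and 8 h with limma on log2(value + 1), adjusted over all 6952 tested genes. All 7 genes passed the filter of a mean of at least 10. At 0 h, which chose them, all 7 were among the genes called higher, a class that held 4.23% of tested genes, while 0.0719% were called lower. After TMM scaling all 7 were again in the class called higher, with 1.35% of genes, against 0.388% called lower. Several other fits called fewer of them at 0 h: 5 with edgeR (2.27% of all genes higher) and 4 with edgeR and TMM factors (1.06%). DESeq2 called 5 (1.45%), and limma on the 4 libraries of 0 h alone called 0 (1.01%). Without KO 0 h replicate 1 limma called 2 (0.82% of all genes), and without KO 0 h replicate 2 it called 4 (0.762%). At 4 h all 7 log2 changes were positive, from 1.00 (Lgals3bp) to 1.57 (Efemp1), with a median of 1.31, where 4986 of the 6952 tested genes were positive. Of the 7, 0 were called by limma, against 0.748% of all genes called higher. Adjusted p ran from 0.136 for Thy1 to 0.732 for Lgals3bp. The calls at 0 h rest on the values that chose the genes, so under every fit they only describe and support nothing. Since the genes were also chosen for holding their level, with all libraries seen, the tests at 4 h are not independent support either.

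The calls at 4 h turned on how the spread was estimated and on the scaling. With TMM factors, limma called Acta2 (log2 change 0.79, SE 0.181, adjusted p = 0.0447), beside 0.69% of all genes called higher and 0.245% called lower. Thy1 (1.01, adjusted p = 0.0552) and Vim (0.75, adjusted p = 0.0611) stood just outside the threshold. edgeR on recovered reads called 0 with the deposited factors (1.04% of all genes higher) and 2 with TMM factors (0.993%). DESeq2 called 3 (1.38% of all genes), and limma on the 4 libraries of 4 h alone called 5 (4% of all genes). Without control 0 h replicate 1 or without control 0 h replicate 2, limma called Vim, Acta2, Thy1, Cdh11 and Efemp1 at 4 h, along with 2.59% and 2.69% of all genes. Their log2 changes were as in the full fit, since neither library belongs to that time, and adjusted p ran from 0.0139 to 0.0427.

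At 8 h the median log2 change of the 7 genes was 0.62, equal to within 0.01 to the 0.63 of all tested genes. Changes ran from 0.31 for Efemp1 (SE 0.517) to 0.92 for Thy1 (SE 0.400). limma called 0 of the 7, against 4.88% of all genes called higher and 0.0144% called lower. edgeR and DESeq2 called 0 at 8 h as well, against 8.1% and 2.19% of all genes called higher. Thy1 and Acta2 were called without control 0 h replicate 1 or 2 (adjusted p from 0.0441 to 0.0479), fits that called 14.5% and 14.4% of all genes higher. After TMM scaling the median was −0.04, 3 of the 7 were positive (Thy1, Cdh11 and Acta2), and Vim, Efemp1, Lgals3bp and Qsox1 were negative. Of the 7, 0 were called on that scale by limma, where 1.44% of all genes were called higher and 0.273% lower. The change at 8 h was not separable from that at 4 h for any of the 7 (limma on the difference, adjusted p from 0.899 to 0.990).

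**Figure D2:**
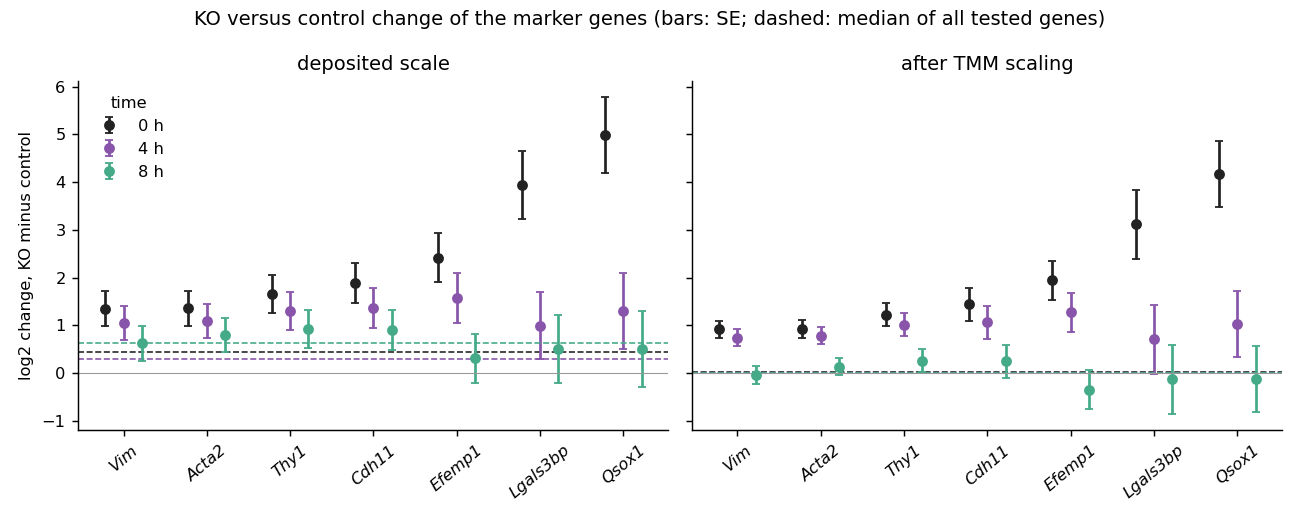
Log2 change of each marker gene, KO minus control, at 0, 4 and 8 h (points, with SE bars from limma) on the deposited scale (left) and after TMM scaling (right). Dashed lines are the medians of all tested genes. Values at 8 h lie around the dashed line on both scales. The 0 h points of Lgals3bp and Qsox1 rest on 5 and 0 control reads and depend on the pseudocount of 1.

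Ratios to Vim within a library do not depend on the library factor. At 0 h Acta2 had 65.2 and 61.8 reads per 100 Vim reads in control and 61.9 and 65.7 in KO. At 4 h it had 66.6 and 78.6 in control and 73.3 and 75.8 in KO, and at 8 h 81.7 and 74.0 against 83.3 and 93.1. Genotypes overlapped at 0 and 4 h, and KO lay above control at 8 h. The ratio was higher at 8 h than at 0 h in every library of both genotypes. Averaged over times, KO stood 0.08 log2 units above control (exact permutation test within times, two-sided, p = 0.231, adjusted p = 0.278 over 6 ratios). The 0 h libraries, which chose both genes, are among those tested, and without them the difference was 0.11. A p above the threshold does not show that the ratios are equal.

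Thy1 and Cdh11 stood somewhat higher against Vim in KO. Thy1 had 11.5 and 12.2, 10.6 and 13.8, and 12.2 and 13.5 reads per 100 Vim reads in control at 0, 4 and 8 h. In KO it had 12.3 and 17.9, 13.7 and 15.6, and 15.8 and 15.9. The difference of 0.29 log2 units had p = 0.0370 before and 0.139 after adjustment (exact permutation test). Cdh11 had 10.7 and 5.04, 7.16 and 9.58, and 7.95 and 6.93 in control. In KO it had 12.5 and 9.34, 10.3 and 10.5, and 8.83 and 9.40, a difference of 0.38 (p = 0.0463, adjusted p = 0.139, exact permutation test). Neither passed the adjusted threshold, and the 0 h libraries that chose the genes are among those tested. Without them the differences were 0.29 and 0.31, in a design whose smallest p, 0.0556, cannot pass the threshold.

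Efemp1 did not keep one ratio to Vim. In control it had 1.37 and 0.840 reads per 100 Vim reads at 0 h, 2.85 and 2.93 at 4 h, and 5.00 and 5.44 at 8 h. In KO it had 2.51 and 2.56, 4.62 and 3.94, and 3.35 and 5.30. The 95% exact binomial intervals of the control libraries at 0 h did not reach those at 8 h. Lgals3bp in control had 1.37 and 0 at 0 h and 2.05 and 3.53 at 8 h, whereas KO libraries lay between 1.5 and 3.55 at all times. Qsox1 had 0 in both control 0 h libraries and between 0.981 and 2.68 in the other 10. Averaged over times, the 3 genes stood 0.43, 0.72 and 1.28 log2 units higher against Vim in KO (adjusted p = 0.194, 0.278 and 0.194, exact permutation test). Without the 0 h libraries the differences were 0.12, −0.06 and 0.12.

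**Figure D3:**
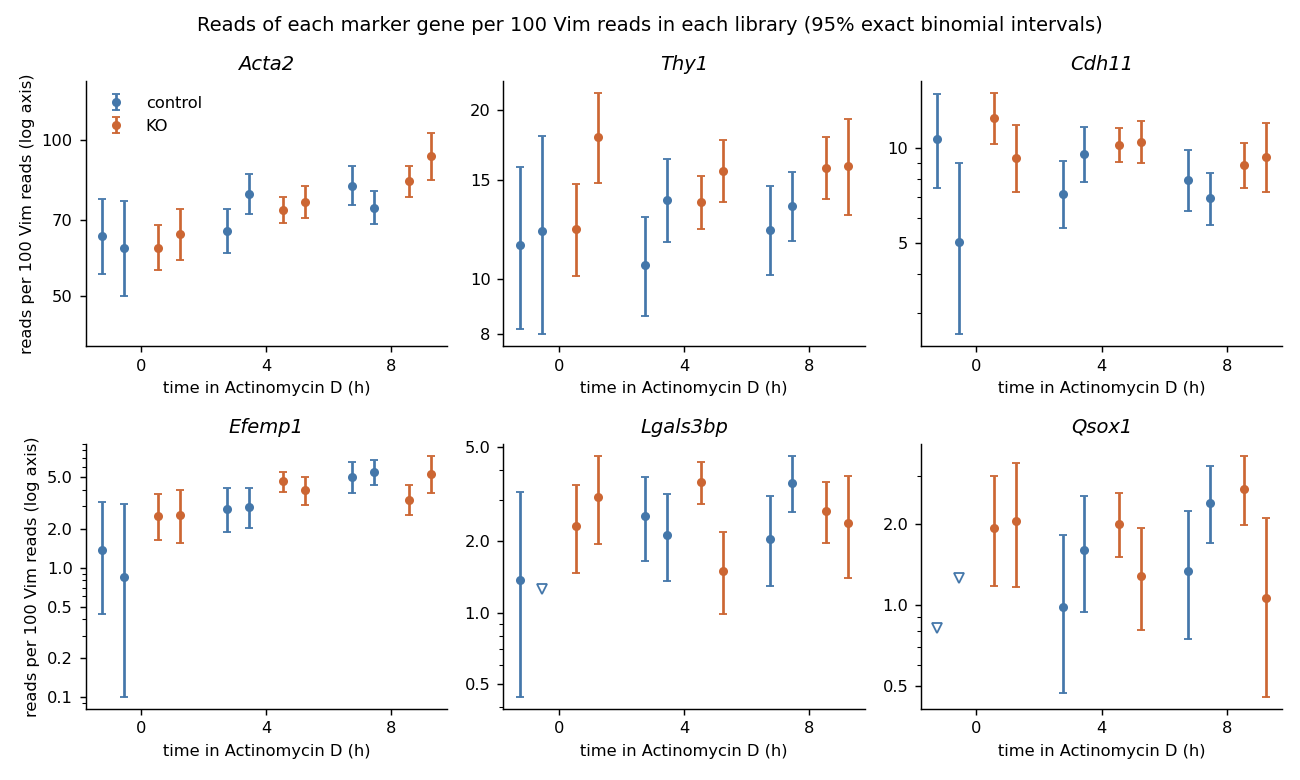
Reads of 6 marker genes per 100 Vim reads (log axis) in each of 12 libraries against hours in Actinomycin D, with 95% exact binomial intervals that cover counting error only. Open triangles mark libraries with 0 reads, at the limit that 3 counts would give. Acta2 lies between 61.8 and 93.1 in every library, while Efemp1 runs from 0.840 to 5.44.

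The spread of these ratios can be set beside counting error. Over the 12 libraries the SD of the log2 ratio to Vim was 0.19 for Acta2, 0.22 for Thy1 and 0.34 for Cdh11, where counting alone would give 0.08, 0.15 and 0.19. Genes of like depth had a median SD of 0.54, 0.65 and 0.68 against Vim. For Efemp1, Lgals3bp and Qsox1 the SD was 0.74, 1.10 and 1.37, where counting would give 0.38, 0.66 and 0.89, and genes of like depth had medians of 0.78, 0.85 and 0.97. These genes and Vim were chosen for a like course, so a spread below that of unselected genes follows in part from the choice and supports nothing. Efemp1, Lgals3bp and Qsox1 had 0 to 5 control reads per library at 0 h.

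Over time, the 7 genes kept more of their level than the typical gene, which is what chose them. On the deposited scale all 7 were higher at 8 h than at 0 h in control, and 6 of the 7 were lower in KO. From 0 to 8 h their median log2 change was 0.45 in control, where the median tested gene changed by −1.33, and −0.57 in KO, where it changed by −1.15. Acta2 changed by 0.45 in control and −0.11 in KO, and Cdh11 by 0.17 and −0.81. Efemp1 was the one member with a positive change in both genotypes, 2.27 and 0.16. After TMM scaling the medians were 1.85 in control and 0.60 in KO, and all 7 changes were positive in both genotypes. No rise above the level of 0 h is read from these values, since the scale between times depends on the library factors.

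Genes with a course most like the 7 were ranked by Pearson r over the 12 libraries on the TMM scale, out of the 1513 with mean values of 100 or more. Lgals1, a galectin abundant in fibroblasts, came first (r = 0.987), followed by Tnc (tenascin C, a matrix glycoprotein, 0.971), Ccnd2 (a D-type cyclin, 0.970), Grem1 (a secreted BMP antagonist, 0.970) and Prss23 (a secreted serine protease, 0.969). The libraries share genotype and time, so r is a description. These genes were ranked by likeness to the members, Vim among them, so closeness to Vim follows in part from the choice. Tnc kept the tightest ratio to Vim of these, with 97.8 to 114 reads per 100 Vim reads in all 12 libraries. Its SD of the log2 ratio was 0.08, where counting would give 0.07. Its KO change after TMM scaling was 0.88, 0.80 and −0.11 at 0, 4 and 8 h, close to the 0.92, 0.75 and −0.04 of Vim.

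Col1a1, the major fibrillar collagen of fibroblasts, had 615 to 672 reads per 100 Vim reads in control and 512 to 632 in KO, with an SD of the log2 ratio of 0.13. Counting alone would give 0.056. At each time Col1a1 stood lower against Vim in KO, without overlap. At 0 h it had 637.5 and 666 in control against 540 and 512 in KO. At 4 h it had 618 and 615 against 573 and 556, and at 8 h 671 and 672 against 632 and 556. Actb, the actin that all cells use, had 437 to 625 reads per 100 Vim reads in control and 347 to 434 in KO, which did not overlap. Pou5f1 did not overlap either, with 23.9 to 38.6 in control and 10.9 to 21.99 in KO. Vim was chosen for being higher in KO at 0 h, so a gene that differs less between genotypes stands lower against it. The lower ratios of Col1a1, Actb and Pou5f1 in KO thus follow in part from that choice and support nothing.

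**Figure D4:**
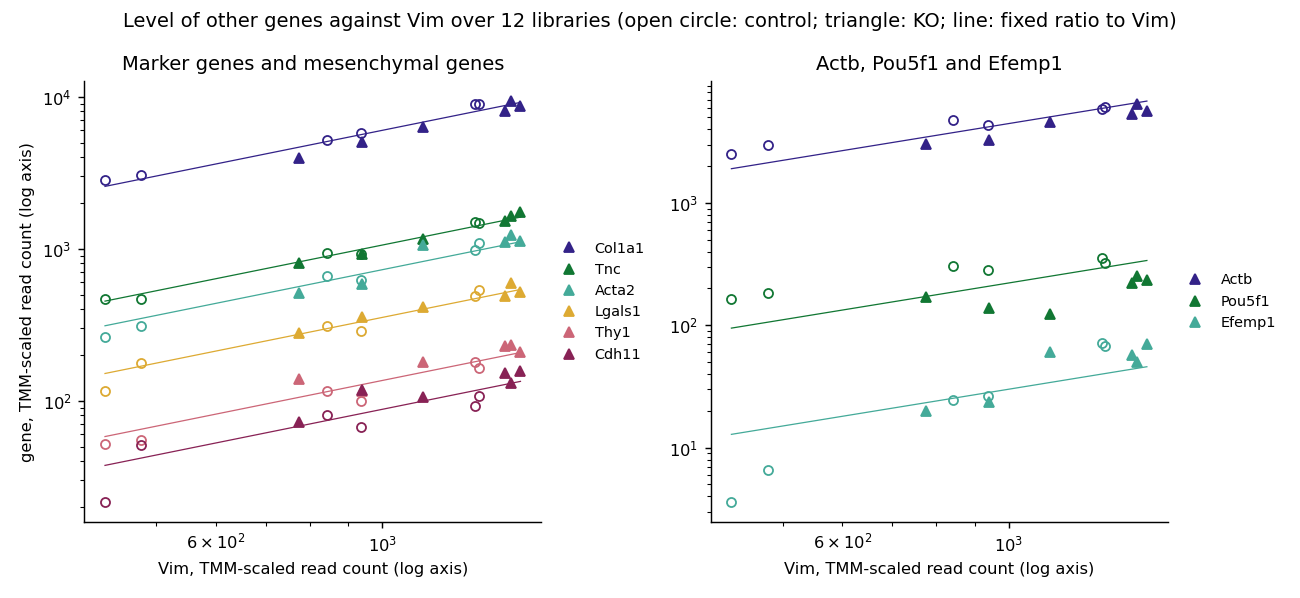
TMM-scaled read count of other genes (vertical, log axis) against that of Vim (horizontal, log axis) in 12 libraries, open circles for control and triangles for KO. Lines mark a fixed ratio to Vim. Tnc, Lgals1, Acta2 and Col1a1 stay close to their lines, and Efemp1 falls below its line in control at 0 h. Pou5f1 lies above its line in control and at or below it in KO, in part because Vim was chosen for being higher in KO.

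Other mesenchymal genes were counted on lists that do not contain the 7. Of 26 mesenchymal and fibroblast genes, 11 were tested, and 1 was called higher at 4 h and 0 at 8 h, with 0 lower at either. The one called was Cdh2 (N-cadherin), at 15.5 in control and 69.6 in KO at 4 h (log2 change 2.11, adjusted p = 0.0281), which had not been called at 0 h (0.14). The median log2 change of this list was 1.57, 0.96 and 0.44 at 0, 4 and 8 h, beside 0.44, 0.29 and 0.63 for all tested genes. At 0 h 4 of the 11 were called higher: Twist1 (1.92), a mesenchymal transcription factor, Ddr2 (2.13), a collagen receptor, Lgals1 (1.57) and Anxa1 (1.65). After TMM scaling only Lgals1 was called of these at 0 h (adjusted p = 0.0182), and Twist1, Ddr2 and Anxa1 had adjusted p of 0.131, 0.0765 and 0.186. Anxa2 and S100a6, calcium-dependent proteins abundant in fibroblasts, had log2 changes of 0.72 and 1.47 at 4 h, neither called.

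Of 36 non-collagen matrix genes, 20 were tested. Bgn (biglycan, a small proteoglycan) was called higher at 4 h, at 138.9 in control and 398 in KO (1.56, adjusted p = 0.0404), and Loxl3, a lysyl oxidase, at 8 h (1.32, adjusted p = 0.0344). The Loxl3 call was lost after TMM scaling (0.66, adjusted p = 0.213). The list's median was 1.05, 0.89 and 0.74 at the 3 times, with 3 genes called higher at 0 h (Tnc, Thbs2 and Igfbp4) and 0 lower, of which Tnc was also called after TMM scaling. Timp2 and Loxl2 had changes of 0.94 and 0.89 at 4 h, neither called. The 8 tested collagens had medians of 1.06, 0.92 and 0.55, with 1 called at 0 h (Col5a2, 1.30, adjusted p = 0.0502 after TMM scaling) and 0 later. Col1a1, Col1a2, Col5a1 and Col12a1 changed by 0.92, 0.93, 0.88 and 0.82 at 4 h.

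Contractile genes, many of them SRF targets like Acta2, had medians of 0.86, 0.76 and 0.68 over 15 tested, with Tpm4 and Cald1 called higher at 0 h (Cald1 not after TMM scaling) and 0 of 15 called at 4 or 8 h. Myh9, Actn1 and Actn4, which ESCs also use, had changes of 0.59, 0.76 and 0.50 at 4 h, and Cald1 1.13. Among targets of TGF-beta and YAP signalling, Ctgf, a matrix-associated YAP target, stood 1.18 higher at 4 h and Smad7, an inhibitor of TGF-beta signalling, 0.25 lower, neither called. After TMM scaling, Tagln (0.89, adjusted p = 0.0470) and Myl9 (1.03, adjusted p = 0.0422) of the contractile list and Tnc (0.80, adjusted p = 0.0437) were called at 4 h, and Cdh2 and Bgn were called as well. At 8 h the medians of the mesenchymal, matrix, collagen and contractile lists on that scale were −0.20, 0.08, −0.12 and 0.01.

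Relatives of the members did not all follow them. Among actins, Actb changed by 0.63 at 0 h, not called, and Actg2 by 2.34, called. Among intermediate filament genes, Des stood 0.81 higher at 4 h and Lmnb1, a nuclear lamin gene, 0.77 lower, neither called on the deposited scale. Ina, a neuronal filament gene, was called higher at 8 h on that scale (2.72, adjusted p = 0.0120) and not after TMM scaling (2.21, adjusted p = 0.0516). After TMM scaling Lmnb1 was called lower at 0 h (−0.86, adjusted p = 0.0465), at 4 h (−1.07, adjusted p = 0.0203) and at 8 h (−0.90, adjusted p = 0.0356). Of the fibulins, Fbln1 and Fbln5 changed by 0.45 and 1.69 at 4 h, not called. Of the classical cadherins, Cdh1 changed by 0.49. The 8 tested genes of oxidative protein folding, the pathway of Qsox1, had medians of 0.36, 0.58 and 0.33 with 0 called, and Itgb1 and Itgav, whose products bind Thy1, changed by 0.96 and 0.75 at 4 h, not called.

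**Figure D5:**
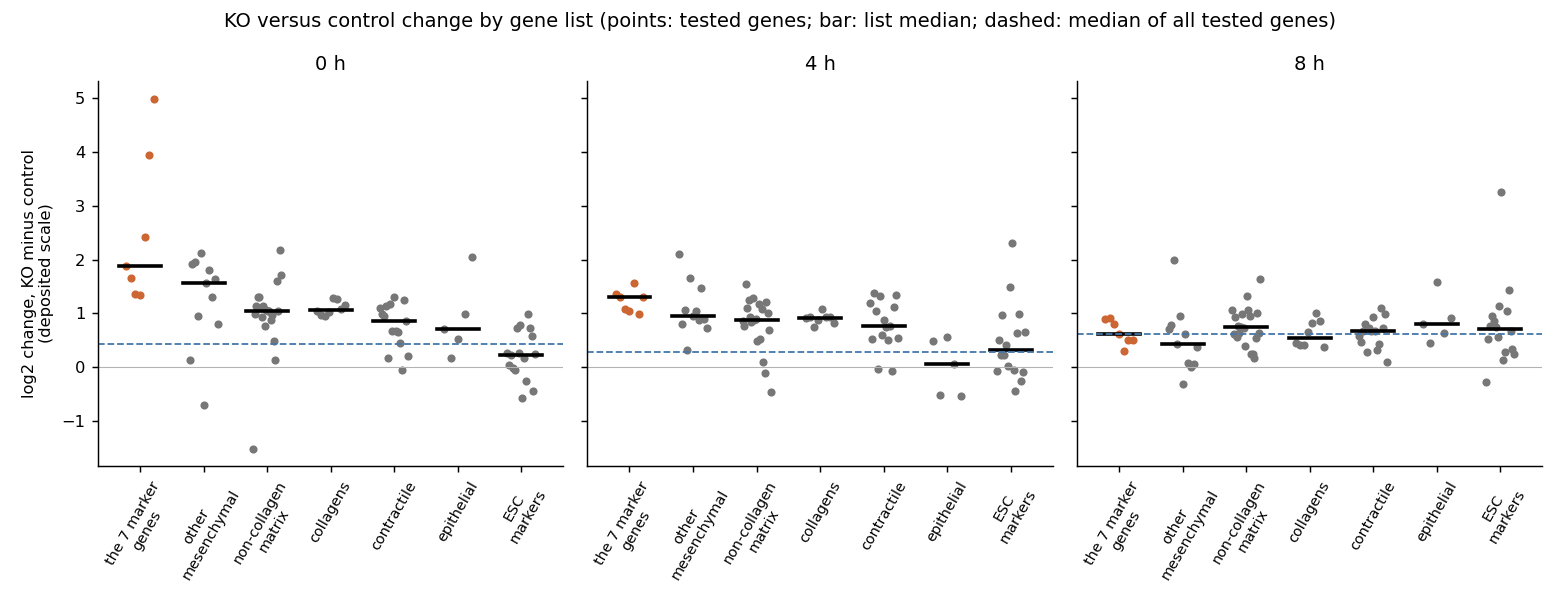
Log2 change, KO minus control, on the deposited scale at 0, 4 and 8 h for tested genes of each list (points), with list medians (bars) and the median of all tested genes (dashed). The medians of the 7 marker genes, other mesenchymal genes and collagens lie above the dashed line at 0 and 4 h and at or below it at 8 h.

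Of the 18 fibroblast markers, 10 were tested, of which 1 was called higher at 0 h (Twist1) and 0 at 4 or 8 h. After TMM scaling 0, 1 (Tagln) and 0 were called. Their median log2 change was 1.10, 0.92 and 0.69, and Fn1, with 181 reads over all libraries, changed by −1.51 at 0 h, not called. The summed value of the 18 was 4652 to 7762 in control and 10680 to 14190 in KO at 0 h, 6722 to 7939 against 13410 to 14310 at 4 h, and 6007 to 7466 against 8080 to 10630 at 8 h. Most of each sum was Col1a1, with a mean of 4094 in control and 8236 in KO at 0 h. After TMM scaling the sums overlapped at 8 h, at 13130 to 13330 in control and 9628 to 13810 in KO. Pdgfrb, Postn and Sparc were listed at 0 in all libraries. So was Actg1, an actin that every cell uses, and a listing at 0 in this table does not show that a gene was silent. Dcn and Lum, matrix proteoglycans of fibroblasts, had 11 and 20 reads over all libraries. The part of these markers in the results for the 7 genes was not tested.

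The summed value of 20 ESC markers was 3822 to 6625 in control and 5260 to 5758 in KO at 0 h, 1793 to 2512 against 2114 to 2362 at 4 h, and 993 to 1294 against 1406 to 1662 at 8 h. Genotypes overlapped at 0 and 4 h on this scale, and KO was higher at 8 h. After TMM scaling KO was lower with no overlap at each time: 3683 to 3797 in control against 2958 to 3104 in KO at 0 h, 2267 to 2433 against 1974 to 2043 at 4 h, and 2204 to 2275 against 1675 to 2158 at 8 h. Of the 16 tested, Dppa3, an ESC and germ cell gene, was called at 8 h (3.27, adjusted p = 0.00187), though not after TMM scaling (adjusted p = 0.0933), and 0 were called at 0 or 4 h. The 10 epithelial genes summed to 541 to 837 in control and 1005 to 1141 in KO at 0 h, with 0 of 5 tested called at any time.

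Neuroectoderm markers summed to 93.5 to 174 in control and 314 to 391 in KO at 0 h, with Sox1 (3.74) and Tubb3 (1.43) called there, though not after TMM scaling (adjusted p = 0.0539 and 0.172). Endothelial markers summed to 21.1 to 22.6 against 94.3 to 109 at 0 h, with Flt1 called (2.72), though not after TMM scaling (adjusted p = 0.0852), and Pecam1 listed at 0. Macrophage markers summed to 16.2 to 36.9 against 40.6 to 115, with Ptprc listed at 0. Extraembryonic endoderm markers summed to 619 to 1040 against 1030 to 1395, mostly laminins, with Gata4 and Sox17 listed at 0 and Lamb1 called on both scales (1.71 on the deposited one). The endoderm, mesoderm and trophoblast sums overlapped between genotypes at 0 h on both scales. After TMM scaling the macrophage sums overlapped too, at 8.98 to 36.6 in control and 22.8 to 61.7 in KO. The neuroectoderm and endothelial sums did not overlap on that scale at 0 h. At 8 h on the deposited scale the macrophage sums were lower in KO, at 8.11 to 11.8 in control and 1.91 to 3.78 in KO. The endothelial sums overlapped there, at 13.5 to 29.8 against 7.56 to 34.4. The neuroectoderm sums were higher in KO, at 102 to 116 against 144 to 201, and overlapped after TMM scaling. The part of these markers in the results for the 7 genes was not tested either.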

How the data were processed

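The 12 Actinomycin D libraries were analysed, and the other 47 samples of the series were not analysed here. The authors deposited a normalised signal for each RefSeq transcript, in which a library's read counts are all scaled by a single factor. For 100% of values this gave whole reads to within 0.001 reads, so reads were recovered. Alignment and counting software is listed, per the submitters' processing notes, as DESeq2, HTSeq 0.6.0 and TopHat2 2.1.1, with the build mm9. The sources used here do not state how strand was treated.

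Of 33896 rows, 978 repeats were dropped, and 32918 transcripts were summed to 23974 genes. The 7 members have 1 row each except Qsox1, with 2, of which 1 held all reads. Genes with a mean of at least 10 were tested (6952) in R 4.3.3, using limma 3.58.1 after log2(value + 1), trend and robust options on, two-sided, 6 group means in 1 fit, Benjamini-Hochberg over all genes, called below 0.05. These changes understate those of low genes. Since the reads were recovered, edgeR 4.0.16 and DESeq2 1.42.0 were run as alternatives, and limma was tested on simulated data. Ratios used log2((reads + 0.5)/(Vim reads + 0.5)) and an exact permutation test of genotype within each time (216 reassignments, scipy 1.17.1 for intervals). Intervals and floors cover counting error only.

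The members and lists were chosen with earlier results of these data known. Named genes were the 7 members, up to 4 genes of highest mean level in each list plus those called at 4 or 8 h, the 5 genes most like the members, and Zcchc8; 1 gene that the rule names, and the summary of its list, are not reported here. Genes named as called at 0 h or after TMM scaling, listed at or near 0, or given as Pou5f1, Dcn, Lum, Fn1 and Actg1, were named after their values were seen. Same-numbered replicates did not deviate together between genotypes (r = 0.016, −0.058 and −0.032 at 0, 4 and 8 h over 6952 genes), so they were not paired.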

Additional observations from a re-analysis of the deposited data

How the results depend on the processing

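All 7 log2 changes were positive at 0 h and at 4 h under all alternatives run, which follows in part from the choice of the genes, made with all libraries seen. Of the 6952 tested genes, 5413 were positive at 0 h and 4986 at 4 h on the deposited scale. After TMM scaling these counts were 3537 and 3460. At 8 h the sign turned for Vim (TMM factors −0.044, edgeR with TMM factors −0.029, DESeq2 −0.026), Efemp1 (−0.35, −0.36 and −0.36), Lgals3bp (−0.13, −0.15 and −0.15) and Qsox1 (−0.12 with TMM factors). Leaving out 1 library gave −0.016 to 1.03 for Lgals3bp and −0.25 to 1.26 for Qsox1 at 8 h. The cause was not tested.

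Counts of called genes depended on the setting. At 0 h they were 299 in all (294 higher), and 121 with TMM factors (94 higher, 77.7%, against 98.3%), 160 with edgeR, 94 with edgeR and TMM factors, 144 with DESeq2, 489 with the replicate block and 71 with the 4 libraries of 0 h alone. At 4 h they were 52, and 13 with no filter, 101 with edgeR and TMM factors, 145 with DESeq2, 113 with the replicate block and 294 with the 4 libraries alone; limma called 0 lower (58 at an unadjusted p below 0.05), DESeq2 49. At 8 h they were 340, and 119 with TMM factors, 94 with no filter, 565 with edgeR, 125 with edgeR and TMM factors, 176 with DESeq2 and 756 with the replicate block. Leaving out 1 library gave 54 to 1136 at 0 h, where the highest was without control 0 h replicate 2, 12 to 194 at 4 h and 46 to 1020 at 8 h. The samples share only a replicate number, and the block called 2 of the 7 genes at 4 h (Thy1 and Cdh11).

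No ratio to Vim passed the adjusted threshold under any alternative run, with adjusted p from 0.0556 to 0.889 and, with the replicate block, 0.0938 for Thy1 and Cdh11. The ratio of Lgals3bp turned to −0.056 without the 0 h libraries, an alternative added after the data were seen, as was edgeR with TMM factors. The median change over time of the 7 genes moved with TMM factors, in control from 0.59 to 1.16 at 4 h and from 0.45 to 1.85 at 8 h, and in KO from 0.08 to 0.78 and from −0.57 to 0.60. Depth limits Efemp1, Lgals3bp and Qsox1 most, with 0 to 5 control reads per library at 0 h.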
